A study of Mus musculus with 12 samples.

Results

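Nuclear genes for the entry of pyruvate into mitochondria and for the citrate cycle were examined in the epididymal white fat (eWAT) of mice, a visceral depot beside the epididymis. They are the 9 genes Pdha1, Pdhb, Pcx, Cs, Idh3a, Ogdh, Suclg1, Fh1 and Mdh2, chosen by name from the 25229 genes with a symbol in the deposited table, with earlier results of these data known. All 9 were found and all 9 passed the filter on low values, with 15597 genes tested in all. The table holds 12 libraries of C57BL/6 mice in 4 groups of 3 biological replicates. HFD_TKO mice carried the genotype labelled TET KO and ate a high-fat diet, HFD_WT mice were wild type on the same diet, ND_TKO mice were TET KO on a normal diet, and ND_WT mice were wild type on a normal diet. The series title places the ablation of TET proteins in adipocytes. The alleles, the driver of the deletion, the age of the mice and the make-up and length of the diets are not given in the sources used here. TET proteins are enzymes that oxidise methylated cytosine in DNA. Whole tissue was sequenced, so each value averages adipocytes with the immune, vascular and stromal cells of the pad.

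Pyruvate from glycolysis enters mitochondria through a carrier and then meets a choice of fates. The pyruvate dehydrogenase complex turns it into acetyl-CoA, and pyruvate carboxylase (Pcx) turns it into oxaloacetate. Citrate synthase (Cs) joins both products into citrate, which the cycle oxidises or which leaves for the cytosol, where white adipocytes use its carbon to make fatty acids. In white fat pyruvate carboxylase is known for refilling the cycle when citrate is drawn off in this way, and the dehydrogenase complex is switched off by kinases and switched on by phosphatases.

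Recovered depth lay between 20973140 and 25606629 reads per library, and values are given in CPM, the reads of a gene relative to the library total. The Tet genes were listed between 0.415 and 3.07 CPM (Tet1), 9.54 and 23.6 CPM (Tet2) and 35.5 and 71.7 CPM (Tet3), and none was at 0 in any library. Tet1 was higher in TKO on both diets. On HFD the group means of Tet2 (11.2 against 15.9 CPM) and Tet3 (60.8 against 68.9 CPM) were lower in TKO than in WT. On ND the TKO and WT means were 18.1 and 18.9 CPM for Tet2 and 45.9 and 39.1 CPM for Tet3. Which exons were deleted is not given and the values cover whole genes in whole tissue, so they do not check the genotype, and groups are named by their labels. Of the markers of mature adipocytes, 15 of 15 were above the filter and summed to 68156 to 78829 CPM in HFD_TKO, 30884 to 33088 CPM in HFD_WT, 95079 to 103642 CPM in ND_TKO and 77953 to 96088 CPM in ND_WT. The 12 macrophage markers summed to 1226 to 1410 CPM in HFD_TKO, 5074 to 5935 CPM in HFD_WT, 682 to 957 CPM in ND_TKO and 832 to 1246 CPM in ND_WT. Skeletal muscle and epididymis were little represented, with 2 of 6 and 1 of 8 markers above the filter. In a principal component analysis ND_WT replicate 3 and HFD_TKO replicate 1 lay apart from the other libraries of their groups on the second component, which held 15.8% of the variance. Their second component scores were -6.21 and 44.2, while the other libraries lay at -32.6 and -32.0 in ND_WT and at 18.5 and 26.2 in HFD_TKO. Fewer cells of a type and less RNA per cell cannot be told apart in such tissue.

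In TKO mice on HFD, transcripts of all 9 enzymes were higher than in WT mice on HFD, by 0.27 to 0.93 on the log2 scale. Of all 15597 genes tested, 15.2% were called higher and 31.6% lower there. HFD lowered 8 of the 9 in WT mice, all but the isocitrate dehydrogenase subunit Idh3a, against 20.3% of all genes tested. In TKO mice it lowered 2 of the 9, Pcx and Ogdh, against 5.9% of all genes. With the replicate number as a block, the Ogdh call in TKO was lost. Over 23 alternative settings described below, the Ogdh call in TKO was lost in 13 and the Pcx call in 9. On ND, Idh3a was the 1 enzyme that differed by genotype, being higher in TKO, as were 2.16% of all genes. That call was lost in 9 of 22 alternatives. The genotype effect was larger on HFD than on ND for Pdha1, Pdhb, Pcx, Suclg1 and Fh1. This difference was called positive for 9.94% of all genes. The calls of Suclg1, Fh1 and Pcx were lost in 11, 7 and 6 of 21 alternatives. Changes are on the log2(CPM + 1) scale and were tested with limma across all genes, with Benjamini-Hochberg adjusted p below 0.05 as the threshold. The TKO and WT comparison on HFD and the diet comparison in WT share the HFD_WT libraries, so they are not separate evidence. Each is therefore given with its own values.

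**Figure D1:**
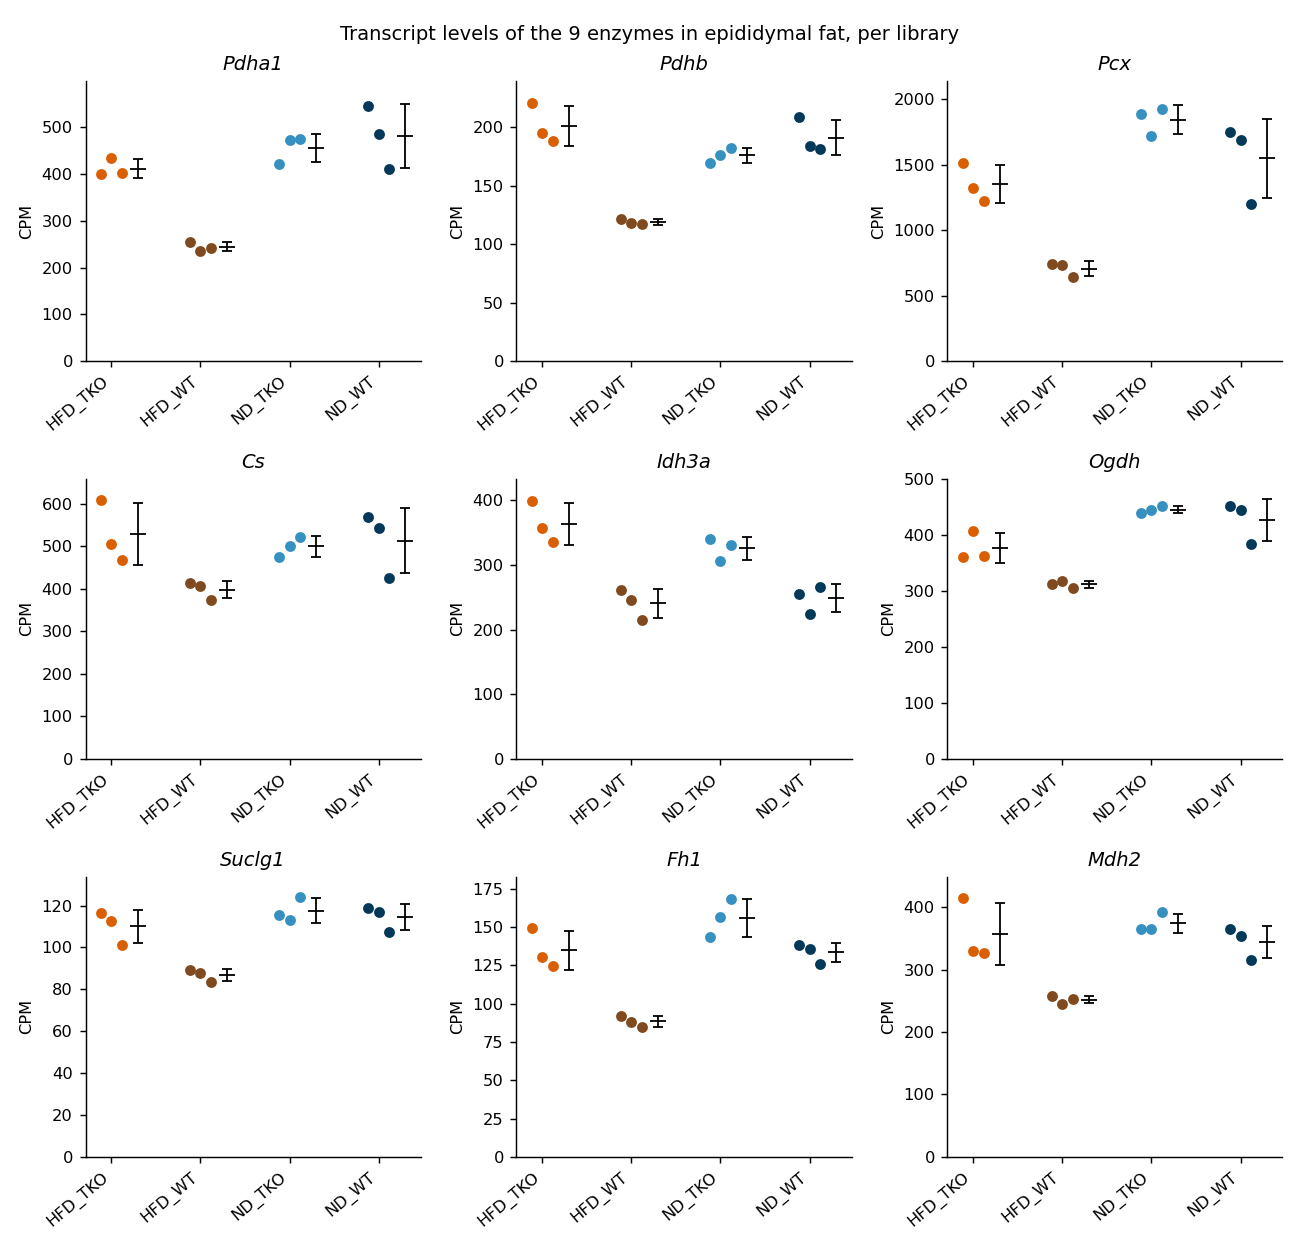
Transcript level in CPM (vertical axes, from 0) of each of the 9 enzymes in 4 groups of 3 libraries. Points are single libraries, and the bar with caps is the group mean ± SD (n = 3). In all 9 panels the 3 HFD_TKO libraries lie above the 3 HFD_WT libraries, and ND_WT replicate 3, the rightmost dark blue point, is the lowest ND_WT library for 8 enzymes.

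Per kilobase of exon, Pcx was the most abundant of the 9 transcripts in every group and Suclg1 the least. Pcx averaged 285 ± 31.0 CPM per kb in HFD_TKO, 149 ± 11.95 in HFD_WT, 388 ± 22.8 in ND_TKO and 326 ± 63.3 in ND_WT (SD, n = 3 each). In HFD_TKO the order after Pcx was Pdha1 (110.4 ± 5.36 CPM per kb), Mdh2 (100.4 ± 14.0), Cs (91.3 ± 12.6), Idh3a (71.7 ± 6.48), Ogdh (69.1 ± 4.86), Pdhb (52.1 ± 4.45), Fh1 (39.8 ± 3.76) and Suclg1 (23.8 ± 1.71). Pdha1, Mdh2 and Cs were neighbours no farther apart than the larger SD of each pair, as were Idh3a and Ogdh. In HFD_WT the 3 nearest neighbours after Pcx were Mdh2 (70.7 ± 1.62 CPM per kb), Cs (68.8 ± 3.51) and Pdha1 (65.6 ± 2.66). The order depends on the length used. Per kilobase of the annotated transcript matched to the RefSeq entry, Fh1 was lowest and Mdh2 and Cs stood above Pdha1 in each group. By that length Pcx was highest in each group but HFD_WT, where Mdh2 (173 CPM per kb) and Pcx (171 CPM per kb) were close. Ogdh had no such length in the reference table.

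The entry of pyruvate is represented by Pdha1, Pdhb and Pcx, which had the 3 largest genotype differences on HFD. Pdha1 encodes the alpha subunit of pyruvate dehydrogenase, which carries the serines that the kinases phosphorylate. Pdhb encodes the beta subunit of the same enzyme. The sequences upstream of their annotated starts are shown because these genes moved most, with the motif letters found in capitals. Each line gives 250 bases 5′ to 3′ on the gene's strand, from the RefSeq table on GRCm38.p6, which is mm10. For Pcx both annotated starts are given. The lines cover chrX:160138431-160138680 (minus strand) for Pdha1, chr14:8172993-8173242 (minus strand) for Pdhb, and chr19:4510222-4510471 and chr19:4594069-4594318 (plus strand) for Pcx.
Pdha1: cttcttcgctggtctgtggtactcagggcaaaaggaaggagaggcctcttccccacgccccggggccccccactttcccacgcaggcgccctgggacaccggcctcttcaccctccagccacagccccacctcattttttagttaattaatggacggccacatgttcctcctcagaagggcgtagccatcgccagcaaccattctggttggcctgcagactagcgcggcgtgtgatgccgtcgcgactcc
Pdhb: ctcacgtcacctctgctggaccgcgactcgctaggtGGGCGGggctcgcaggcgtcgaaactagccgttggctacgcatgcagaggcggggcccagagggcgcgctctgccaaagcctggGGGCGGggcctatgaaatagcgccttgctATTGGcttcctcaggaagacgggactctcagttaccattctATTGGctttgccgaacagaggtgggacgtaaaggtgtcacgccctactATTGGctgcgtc
Pcx first start: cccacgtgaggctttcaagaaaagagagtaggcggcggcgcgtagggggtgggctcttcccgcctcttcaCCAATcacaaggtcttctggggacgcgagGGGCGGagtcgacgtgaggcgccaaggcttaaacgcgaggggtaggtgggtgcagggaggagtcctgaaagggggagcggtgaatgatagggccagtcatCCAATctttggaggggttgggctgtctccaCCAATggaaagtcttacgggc
Pcx second start: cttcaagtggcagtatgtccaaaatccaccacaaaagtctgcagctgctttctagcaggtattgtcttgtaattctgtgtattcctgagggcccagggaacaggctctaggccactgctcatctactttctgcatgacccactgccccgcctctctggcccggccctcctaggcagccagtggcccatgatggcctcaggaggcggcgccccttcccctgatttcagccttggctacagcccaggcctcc

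Motifs were searched on both strands. They were CCAAT for NF-Y, GGGCGG for SP1, CCGGAAG for GABPA and other ETS factors, GCATGCGC for the core of the NRF1 motif and TNAAGGTCA for oestrogen-related receptors, and none contains another. Pdhb held CCAAT (as ATTGG on the printed strand) and GGGCGG, as did the first start of Pcx, while the Pdha1 window and the second start of Pcx held none of the 5. Of the 9 enzymes 8 were in the promoter table, with 14 windows. Ogdh had the most windows, several of which overlap, so the windows are not separate units. Counts and medians over windows are weighted toward Ogdh. CCAAT was in 8 of 14 windows and 5 enzymes, and in 33.8% of all 32851 windows of the same length. GGGCGG was in 7 of 14 windows and 6 enzymes, and in 32.7% of all windows. GCATGCGC was in 2 overlapping windows of Ogdh that hold the same site, against 2.26% of all windows. CCGGAAG and TNAAGGTCA, found in 6.91% and 1.14% of all windows, were in 0 of 14. The windows of the enzymes had a median GC content of 57.8% (range 50% to 74%) and 15.5 CpG sites (range 4 to 35), against medians of 52.4% and 6 over all windows.

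Pdha1 (chromosome X of mm10, 160122209 to 160138413, minus strand) had 399.6, 435 and 402 CPM in HFD_TKO and 256, 236 and 243 CPM in HFD_WT, against 421, 473 and 475 CPM in ND_TKO and 547, 486 and 410.0 CPM in ND_WT. The HFD_WT libraries were low and did not overlap any other group. On HFD Pdha1 was 0.75 higher in TKO (SE 0.099, adjusted p = 7.4e-05), a fold of 1.68. HFD lowered it in WT by 0.96 (log2 change -0.96, SE 0.099, adjusted p = 6.4e-06), to a fold of 0.513. In TKO the diet change was -0.15 with a 95% interval of -0.36 to 0.07, and its groups overlapped. The exons of Pdha1 share 603 bases, 16.1% of its exon length, with Map3k15 on the opposite strand, a gene for a signalling kinase. Whether counting used strand is not given, so Pdha1 may hold reads of Map3k15 and is uncertain to that extent. Map3k15 averaged 137 ± 2.66 CPM in HFD_TKO, 84.5 ± 1.83 CPM in HFD_WT, 156 ± 17.0 CPM in ND_TKO and 167 ± 18.9 CPM in ND_WT (SD, n = 3 each). Its own changes were 0.69 on HFD and -0.97 for the diet in WT, and its part in the values of Pdha1 was not tested.

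Pdhb (chromosome 14, 8165996 to 8173025, minus strand) had 221, 195 and 188 CPM in HFD_TKO and 122, 118 and 117 CPM in HFD_WT, against 169.7, 176 and 182 CPM in ND_TKO and 208, 184 and 181 CPM in ND_WT. Its HFD_WT libraries were again below all others. On HFD it was 0.75 higher in TKO (SE 0.076, adjusted p = 9.4e-06), and HFD lowered it in WT (-0.68, SE 0.076, adjusted p = 1.3e-05). In TKO every HFD library lay above every ND library, but the change of 0.19 did not pass the test (adjusted p = 0.096). The ratio of Pdhb to Pdha1 within a library, which does not depend on how the library is scaled, was higher on HFD than on ND by 0.34 in TKO and 0.29 in WT on the log2 scale. Both had an exact two-sided permutation p of 0.1, the smallest that 3 against 3 libraries allow, and 0.2 adjusted over the 12 ratio comparisons made.

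Pcx (chromosome 19, 4510472 to 4621752, plus strand) had 1514, 1326 and 1223.5 CPM in HFD_TKO and 742, 739 and 642 CPM in HFD_WT, against 1889.6, 1721 and 1924 CPM in ND_TKO and 1754, 1690.0 and 1204 CPM in ND_WT. Of the 9 it had the widest range, 1.58 on the log2 scale between its lowest and highest library. HFD_WT was lowest with no overlap, HFD_TKO lay between HFD_WT and ND_TKO, and ND_WT replicate 3 was below the other 2 of its group. On HFD Pcx was 0.93 higher in TKO (SE 0.14, adjusted p = 2.2e-04), and HFD lowered it in WT (-1.11, SE 0.14, adjusted p = 3.8e-05). HFD also lowered it in TKO, by less (-0.45, SE 0.14, adjusted p = 0.042). That call was lost without any 1 of the 3 ND_TKO or 3 HFD_WT libraries or without HFD_TKO replicate 2 or 3, with an adjusted p of at most 0.14. With no filter on low values it was lost too (adjusted p = 0.078). Over all alternatives the adjusted p lay between 0.0069 and 0.14. The ratio of Pcx to Pdha1 was higher in TKO than in WT by 0.34 on ND and by 0.18 on HFD (exact permutation p = 0.1 and 0.3).

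The first steps of the cycle are represented by Cs, Idh3a and Ogdh. Cs, the citrate synthase gene (chromosome 10, 128337734 to 128362479, plus strand), had 609, 506 and 468 CPM in HFD_TKO and 413, 406 and 375 CPM in HFD_WT, against 475, 501 and 523 CPM in ND_TKO and 569, 543 and 426 CPM in ND_WT. The HFD_WT libraries were low and the other 3 groups overlapped. Cs was 0.40 higher in TKO on HFD (SE 0.12, adjusted p = 0.016) and lowered by HFD in WT (-0.36, SE 0.12, adjusted p = 0.023). These were the weakest calls among the enzymes of those comparisons. The genotype call was lost without HFD_WT replicate 3 or HFD_TKO replicate 1, and the adjusted p lay between 6.0e-04 and 0.064 over all alternatives. The diet call was lost without ND_WT replicate 1, ND_WT replicate 2 or HFD_WT replicate 3, with a range of 9.0e-04 to 0.098 over all alternatives.

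Idh3a encodes the catalytic alpha subunit of NAD-dependent isocitrate dehydrogenase, a regulated step of the cycle (chromosome 9, 54586334 to 54604661, plus strand). It had 399.4, 356 and 335 CPM in HFD_TKO and 261, 245 and 216 CPM in HFD_WT, against 339.7, 306 and 331 CPM in ND_TKO and 255, 224 and 266 CPM in ND_WT. The 6 TKO libraries lay above the 6 WT libraries whichever the diet, a pattern no other enzyme of the 9 showed. How many of all genes tested had this pattern was not counted. Idh3a was 0.59 higher in TKO on HFD (SE 0.097, adjusted p = 3.4e-04) and 0.39 higher in TKO on ND (SE 0.097, adjusted p = 0.037). The diet changes were -0.05 in WT (95% interval -0.26 to 0.16) and 0.16 in TKO (-0.06 to 0.37), and neither passed the test. The interaction was 0.20 (95% interval -0.09 to 0.50), so the genotype effects on the 2 diets were not shown to differ. The call on ND was lost in 9 of 22 alternatives, among them those without ND_WT replicate 1 or 2, any ND_TKO replicate, HFD_WT replicate 2 or HFD_TKO replicate 2, and its adjusted p lay between 0.0069 and 0.12.

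Ogdh encodes the first component of the oxoglutarate dehydrogenase complex (chromosome 11, 6291633 to 6356642, plus strand). It had 360.3, 408 and 363 CPM in HFD_TKO and 313, 318 and 306 CPM in HFD_WT, against 439.6, 445 and 452 CPM in ND_TKO and 452, 444 and 383 CPM in ND_WT. Both HFD groups lay below both ND groups, apart from HFD_TKO replicate 2, which overlapped ND_WT replicate 3. Ogdh had the smallest genotype difference on HFD, 0.27 (SE 0.078, adjusted p = 0.014), a call lost without HFD_TKO replicate 2 (adjusted p = 0.061, the highest of its alternatives, with a lowest of 1.0e-05). HFD lowered it in WT (-0.45, SE 0.078, adjusted p = 4.2e-04) and in TKO (-0.24, SE 0.078, adjusted p = 0.046). In TKO the adjusted p was 0.051 with the replicate number as a block over all libraries, and 0.054 with that block in ND_TKO and HFD_TKO alone. It was 0.057 with no filter on low values and 0.074 with only the groups compared. It lay between 0.0021 and 0.14 over all alternatives and passed without ND_WT replicate 2 or 3 or HFD_TKO replicate 2, while leaving out any other library ended the call.

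The later steps are represented by Suclg1, Fh1 and Mdh2. Suclg1 encodes the alpha subunit that both forms of succinyl-CoA synthetase share (chromosome 6, 73248382 to 73276911, plus strand). It had 116, 113 and 101 CPM in HFD_TKO and 89.2, 87.8 and 83.6 CPM in HFD_WT, against 115, 113 and 124 CPM in ND_TKO and 119, 117 and 107 CPM in ND_WT. The 3 HFD_WT libraries stood below 9 others that overlapped. It was 0.34 higher in TKO on HFD (SE 0.072, adjusted p = 0.0024) and lowered by HFD in WT (-0.39, SE 0.072, adjusted p = 6.0e-04).

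Fh1 encodes fumarase, which turns fumarate into malate (chromosome 1, 175600374 to 175625635, minus strand). It had 149, 131 and 125 CPM in HFD_TKO and 92.1, 88.2 and 84.8 CPM in HFD_WT, against 143, 157 and 168 CPM in ND_TKO and 138, 136 and 126 CPM in ND_WT. HFD_WT was lowest without overlap, and on ND the 3 TKO libraries lay above the 3 WT libraries. Fh1 was 0.60 higher in TKO on HFD (SE 0.083, adjusted p = 9.8e-05) and lowered by HFD in WT (-0.59, SE 0.083, adjusted p = 8.0e-05), while the 0.22 on ND did not pass (adjusted p = 0.14).

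Mdh2 encodes the mitochondrial malate dehydrogenase that closes the cycle (chromosome 5, 135778480 to 135790398, plus strand). It had 415, 330.1 and 327 CPM in HFD_TKO and 257, 246 and 253 CPM in HFD_WT, against 366, 365 and 392 CPM in ND_TKO and 365, 353 and 316 CPM in ND_WT. HFD_WT was again below the rest, and HFD_TKO replicate 1 was the highest library of all 12. Mdh2 was 0.50 higher in TKO on HFD (SE 0.094, adjusted p = 0.0011) and lowered by HFD in WT (-0.45, SE 0.094, adjusted p = 0.0015). On ND every TKO library lay above every WT library, by a margin under 1 CPM, and the difference of 0.12 did not pass the test (adjusted p = 0.49).

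By count, 9 of 9 enzymes were called higher and 0 lower in TKO on HFD, where 15.2% of the 15597 genes tested were called higher and 31.6% lower. All 9 had every TKO library above every WT library on HFD, as 21% of all tested genes did. In WT, HFD lowered 8 of 9 and raised 0, against 20.3% and 37.8% of all genes, and 8 of 9 had every HFD library below every ND library, against 23.8%. In TKO, HFD lowered 2 of 9 and raised 0, against 5.9% and 16.2%, and 2 of 9 had every HFD library below every ND library, against 11.7%. With the replicate block 1 of 9 remained called there. On ND, 1 of 9 was higher in TKO and 0 lower, against 2.16% and 3.54% of all genes, and 3 of 9 (Idh3a, Fh1 and Mdh2) had every TKO library above every WT library, against 7.96%. Besides Idh3a, Fh1 was past an unadjusted p of 0.05 on ND. The median change of the enzymes was 0.59 for TKO on HFD (all genes -0.10), -0.45 for HFD in WT (all genes 0.13), -0.10 for HFD in TKO (all genes 0.07) and 0.07 for TKO on ND (all genes -0.06). The split of calls over all genes depended on scaling. With trimmed mean (TMM) scaling the TKO to WT comparison under HFD gave 3539 higher and 3856 lower genes (2365 and 4923 with CPM), with an all-gene median of 0.0075, and 4554 were higher and 4393 lower on HFD in WT (5892 and 3173 with CPM), with an all-gene median of -0.0050. For HFD in TKO they numbered 1523 and 1393 (2525 and 921 with CPM), while the counts of enzymes called were the same under both scalings in each comparison.

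**Figure D2:**
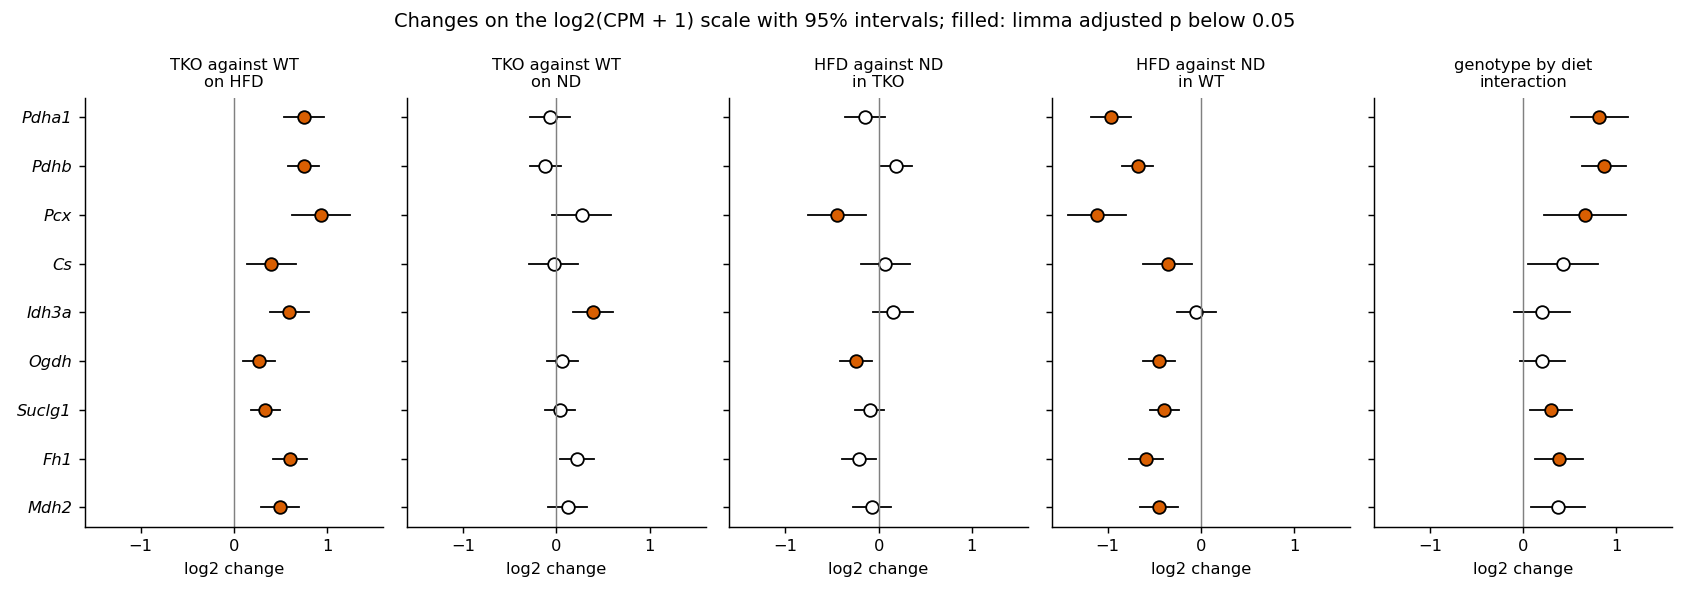
Changes of the 9 enzymes (rows) on the log2(CPM + 1) scale (horizontal axes) in 5 comparisons, with 95% intervals. Filled points have a limma adjusted p below 0.05: 9 for TKO on HFD, 1 for TKO on ND, 2 for HFD in TKO, 8 for HFD in WT and 5 for the interaction.

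The interaction asks whether the genotype effect differed between diets. It was positive for all 9 enzymes and called for 5, against 9.94% of all genes called higher and 18.8% called lower. Pdhb had the largest value, 0.87 (SE 0.11, adjusted p = 1.4e-04), followed by Pdha1 with 0.82 (SE 0.14, adjusted p = 0.0012). These 2 calls held in each of the 21 alternatives. Pcx (0.66, SE 0.20, adjusted p = 0.028), Fh1 (0.38, SE 0.12, adjusted p = 0.030) and Suclg1 (0.30, SE 0.10, adjusted p = 0.048) were called less firmly. The Pcx call was lost without ND_WT replicate 1 or 2, ND_TKO replicate 2, HFD_WT replicate 3 or HFD_TKO replicate 1 (adjusted p up to 0.072). With no filter on low values it was lost too (adjusted p = 0.055). Fh1 lost its call without ND_WT replicate 1 or 2, ND_TKO replicate 1 or 2, HFD_WT replicate 2 or 3 or HFD_TKO replicate 1 (adjusted p up to 0.075). Suclg1 lost its call in 11 of 21 alternatives (adjusted p up to 0.11), and kept it only without ND_WT replicate 3, ND_TKO replicate 3 or HFD_TKO replicate 3 when 1 library was left out. Mdh2 (0.38, adjusted p = 0.054), Cs (0.43, adjusted p = 0.081), Ogdh (0.20, adjusted p = 0.20) and Idh3a (0.20, adjusted p = 0.30) did not pass. Without ND_WT replicate 3 as many as 8 of 9 passed, and without ND_WT replicate 1 or 2, ND_TKO replicate 2, HFD_WT replicate 3 or HFD_TKO replicate 1 only 2 did.

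Most other genes that bring pyruvate to acetyl-CoA were also higher in TKO on HFD. Of the 5 genes of the mitochondrial pyruvate carrier and of the rest of the dehydrogenase complex, 4 were higher and 0 lower in TKO on HFD, with a median change of 0.73. HFD in WT lowered 4 and raised 0 (median -0.39), and limma called 0 of 5 for HFD in TKO and for genotype on ND. Past an unadjusted p of 0.05 were 0 and 2 of them (Mpc2 and Dlat), and edgeR and DESeq2 called 0 in both. Mpc1, a subunit of the carrier, averaged 275 ± 15.1 CPM in HFD_TKO and 148 ± 8.32 CPM in HFD_WT, against 264 ± 11.1 CPM in ND_TKO and 257 ± 8.38 CPM in ND_WT (SD, n = 3 each). Its genotype change on HFD was 0.89 (adjusted p = 1.1e-06) and its interaction was 0.85 (adjusted p = 8.0e-05). Mpc2, the other subunit, was 0.84 higher in TKO on HFD. Its call for HFD in WT (-0.35, adjusted p = 0.040) was lost without ND_WT replicate 3, ND_TKO replicate 1 or any 1 HFD_WT replicate. With no filter on low values that call was lost too (adjusted p = 0.056). Dld, the dihydrolipoamide dehydrogenase that several complexes share, and Pdhx, which anchors it in the dehydrogenase complex, were 0.52 and 0.73 higher in TKO on HFD. Dlat, the acetyltransferase core of the complex, was 0.36 on HFD by limma on CPM (adjusted p = 0.072) and was the 1 not called there. It was called higher in that comparison with TMM scaling (adjusted p = 0.032), by edgeR (0.027) and by DESeq2 (0.011).

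Kinases and phosphatases of pyruvate dehydrogenase went several ways. Of 7 genes, 1 was higher and 4 lower in TKO on HFD (median -0.58), 1 was higher and 2 lower on HFD in WT (median -0.30), and 0 were higher and 2 lower on HFD in TKO (median -0.27). On ND limma called 0 of 7, with 2 past an unadjusted p of 0.05 and 1 called by edgeR and by DESeq2. Pdk4, a kinase that switches the enzyme off and is known to be induced in fasting, had 40.7, 86.0 and 85.5 CPM in HFD_TKO and 164, 152 and 142 CPM in HFD_WT, against 100.7, 112 and 92.5 CPM in ND_TKO and 46.1, 69.8 and 46.8 CPM in ND_WT. Its order of groups was unlike that of the 9 enzymes: by group mean HFD_WT was highest and ND_WT lowest, with the TKO groups between. HFD_TKO replicate 1 was below the other 2 of its group and below every ND_WT library. Pdk4 was 1.17 lower in TKO on HFD (log2 change -1.17, SE 0.25, adjusted p = 0.0021), raised by HFD in WT (1.5, SE 0.25, adjusted p = 2.6e-04) and had an interaction of -2.09 (SE 0.35, adjusted p = 9.7e-04). On ND the difference of 0.92 just missed the threshold (adjusted p = 0.051) and passed it in 9 of 22 alternatives. The log2 ratio of Pdk4 to Pdha1 differed by -1.92 between TKO and WT on HFD, by 2.46 between diets in WT, by 0.98 between genotypes on ND and by -0.44 between diets in TKO (exact permutation p = 0.1, 0.1, 0.1 and 0.3).

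Pdk2, the kinase found in most tissues, had 50.2, 86.0 and 80.5 CPM in HFD_TKO and 40.7, 43.2 and 48.4 CPM in HFD_WT, against 133, 157 and 171 CPM in ND_TKO and 170.1, 199 and 116 CPM in ND_WT. Both HFD groups lay below both ND groups. HFD lowered it in TKO (-1.11, adjusted p = 0.0048) and in WT (-1.82, adjusted p = 1.8e-05). Its genotype call on HFD (0.66, adjusted p = 0.023) was lost without HFD_WT replicate 1 or 2 or HFD_TKO replicate 2 or 3, with an adjusted p of at most 0.090. Pdk1 and Pdp1, a kinase and a phosphatase, were lower in TKO on HFD (log2 changes -0.70 and -0.63, adjusted p = 0.0059 and 6.3e-04). The low kinase Pdk3, at 8.15 ± 2.35 CPM in HFD_TKO and 12.4 ± 1.21 CPM in HFD_WT (SD, n = 3 each), was also called lower (-0.58, adjusted p = 0.029), a call lost with edgeR (adjusted p = 0.056) and without HFD_WT replicate 1 or 3 or HFD_TKO replicate 1. Pdp2, the other phosphatase, was lowered by HFD in WT (-1.14, adjusted p = 2.1e-04) and had an interaction of 0.90 (adjusted p = 0.021), lost without HFD_TKO replicate 2 (adjusted p = 0.051). Pdpr, the regulatory subunit, was called in no comparison by limma on CPM, with -0.33 for HFD in WT (adjusted p = 0.099). There it was called lower with TMM scaling (adjusted p = 0.014), by edgeR (0.011) and by DESeq2 (0.0049), as was Pdk1, and with TMM scaling 4 of the 7 were lower.

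**Figure D3:**
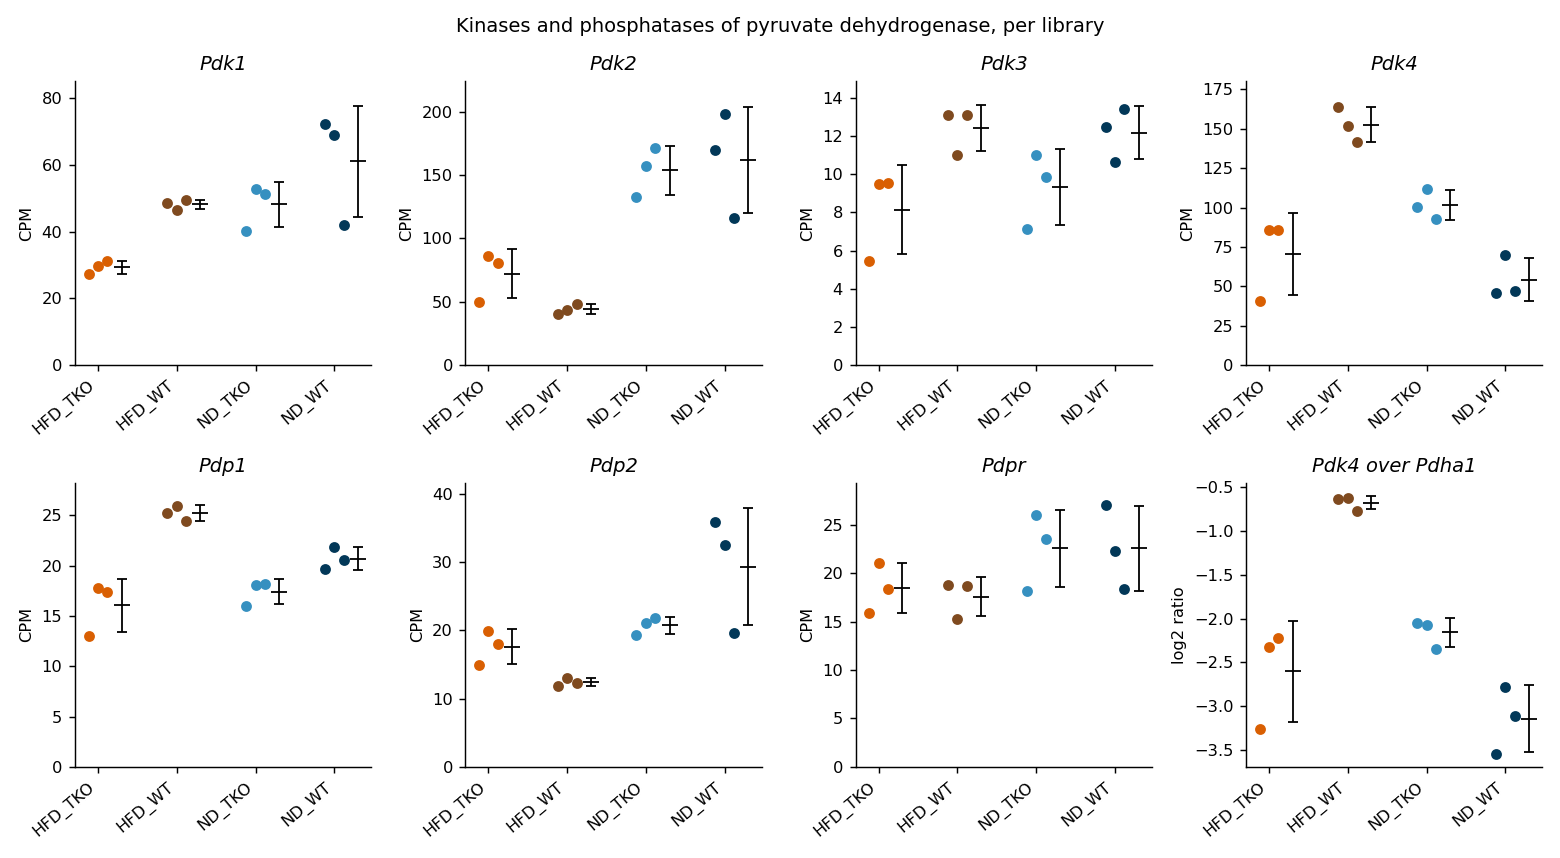
CPM per library (vertical axes, from 0) of the 7 kinases and phosphatases of pyruvate dehydrogenase, and in the last panel the log2 ratio of Pdk4 to Pdha1. Points are libraries, and bars with caps are mean ± SD (n = 3). Pdk4 is highest in HFD_WT, at 142 to 164 CPM, while Pdk2 is low in both HFD groups.

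Most of the remaining subunits of the cycle were also higher in TKO on HFD and lowered by HFD in WT. Among 13 of them, TKO on HFD gave 9 calls higher and 0 lower (median 0.29), 10 were lower and 0 higher on HFD in WT (median -0.55), 5 were lower and 0 higher on HFD in TKO (median -0.18), and limma called 0 on ND (median -0.01), with 1 past an unadjusted p of 0.05, 0 called by edgeR and 1 by DESeq2. Of the subunits named, Idh3g, a regulatory subunit of the enzyme of Idh3a, had the largest change in TKO on HFD (0.65). It gave -0.90 for HFD in WT. Dlst, the partner of Ogdh in its complex, gave 0.48 and -0.55, and Sdhc, a membrane anchor of succinate dehydrogenase, was 0.39 higher in TKO on HFD. For HFD in TKO, Suclg2, which pairs with Suclg1, had the largest change (-0.64, adjusted p = 0.021), a call lost without ND_TKO replicate 2 or 3 or HFD_TKO replicate 1. Suclg2 was low in both HFD groups. It averaged 62.3 ± 6.67 CPM in HFD_TKO and 55.9 ± 2.72 CPM in HFD_WT, against 98.4 ± 18.1 CPM in ND_TKO and 109 ± 25.2 CPM in ND_WT (SD, n = 3 each). Genes that supply lipoate and iron-sulphur clusters, cofactors of the dehydrogenase complexes and succinate dehydrogenase, gave similar counts. Of 9, 7 were higher and 1 lower in TKO on HFD (median 0.52), and 8 were lower and 1 higher on HFD in WT (median -0.51). The ferredoxin gene Fdx1 showed the largest changes, 0.83 in TKO on HFD and -1.51 for HFD in WT, and Lias, the lipoate synthase gene, showed 0.50 and -0.51.

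Genes that move carbon between the mitochondrion and the cytosol were split. Of 20, 7 were higher and 6 lower in TKO on HFD (median -0.03), and 6 were higher and 5 lower on HFD in WT (median 0.02). The aspartate-glutamate carriers Slc25a13 and Slc25a12 (-2.89 and -1.09) and the cytosolic aminotransferase Got1 (-1.57) were lower in TKO on HFD, while the lactate dehydrogenase subunit Ldhb was higher (1.14). In WT, HFD raised Slc25a13 by 3.29 and Got1 by 1.83 and lowered Ldhb (-1.56) and Pck1, the glyceroneogenic enzyme of fat (-3.66). Pck1 was also lowered by HFD in TKO (-1.44), where Acly, which splits exported citrate, was raised by 1.5. On ND Pck1 was lower in TKO (-1.09, adjusted p = 0.0035) and the dicarboxylate carrier Slc25a10 was higher (0.83, adjusted p = 0.0083).

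The lists of biogenesis regulators and of outer membrane, import and chaperone genes did not move as one. No separate list of respiratory chain genes was counted, so these lists do not stand for mitochondria in general. Of 8 regulators of mitochondrial biogenesis, 3 were higher and 3 lower in TKO on HFD (median 0.02), and 3 were higher and 2 lower on HFD in WT (median 0.02). Pprc1, a coactivator, and Nrf1, a transcription factor of respiratory genes, were lower in TKO on HFD (-0.45 and -0.55), while the mitochondrial transcription factor Tfb2m was higher (0.34). Of 13 genes of the outer membrane, protein import and chaperones, 6 were higher and 1 lower in TKO on HFD (median 0.19), and 3 were higher and 4 lower on HFD in WT (median -0.06). With TMM scaling these were 9 and 0, and 1 and 6, mostly in the direction of the 9 enzymes. The import gene Timm50 was 0.50 higher in TKO on HFD and -0.56 for HFD in WT. The outer membrane channel Vdac2 went the other way (-0.34 and 0.46), but its first call was lost when libraries were scaled by trimmed mean (adjusted p = 0.055).

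**Figure D4:**
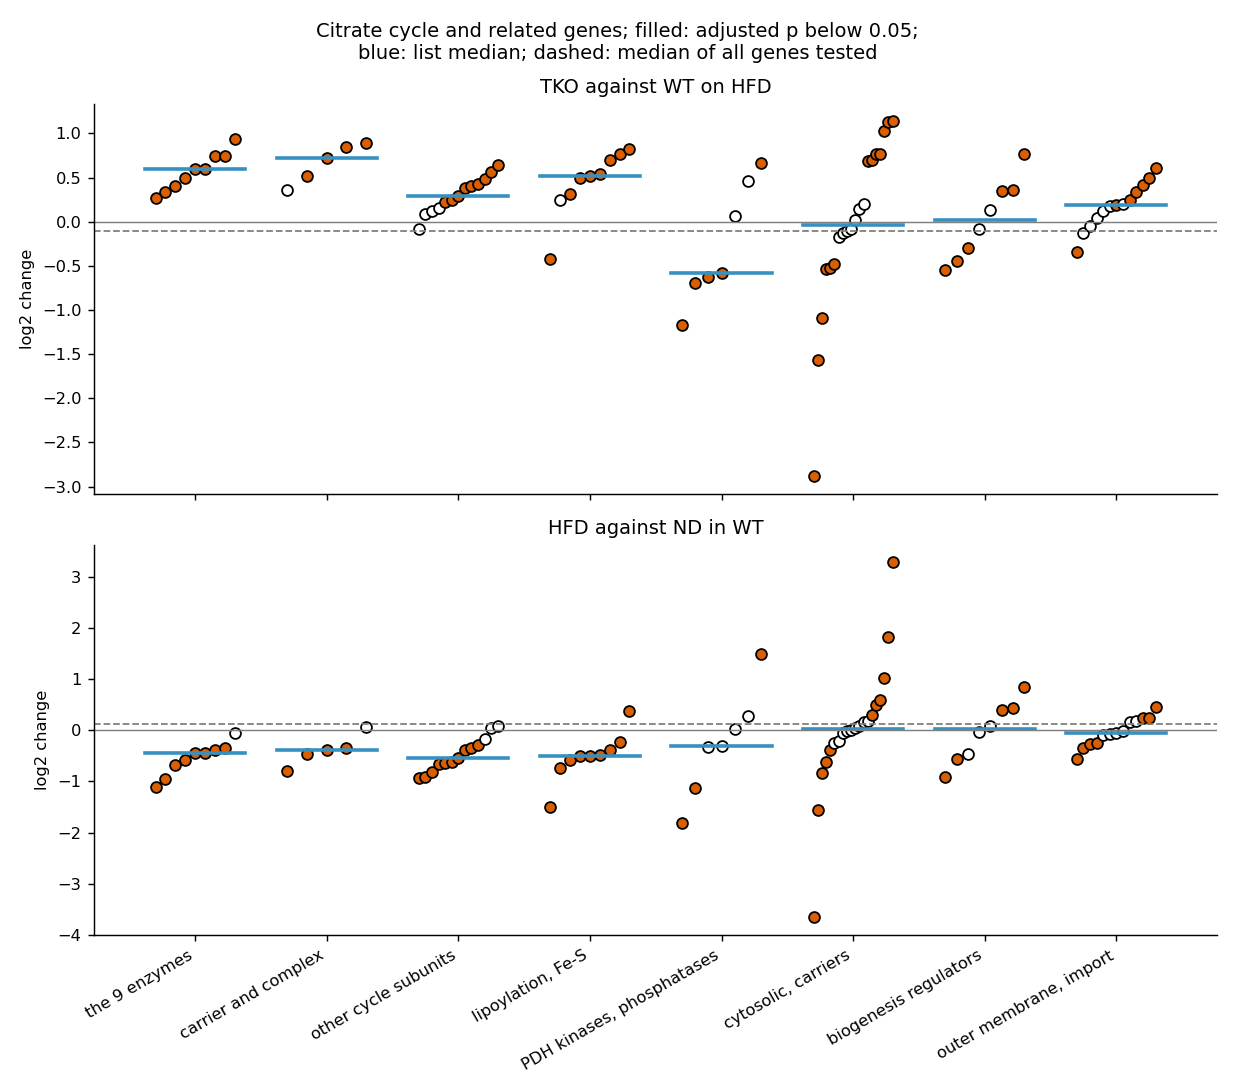
Log2 change (vertical axes) of each tested gene of 8 lists (horizontal axis) for TKO against WT on HFD (upper panel) and HFD against ND in WT (lower panel). Points are genes, filled where the limma adjusted p is below 0.05, blue lines are list medians, and the dashed line is the median of all genes tested (-0.10 and 0.13). The medians of the 9 enzymes, the pyruvate carrier and complex, and the cycle subunits lie above the dashed line in the upper panel and below it in the lower (0.59, 0.73 and 0.29, then -0.45, -0.39 and -0.55).

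The 9 enzymes were not equally alike across the 12 libraries. Each profile was centred on its own mean log2(CPM + 1), and likeness was the root mean square difference between profiles. Mdh2 (0.065) and Fh1 (0.071) lay nearest to the mean of the 9, and Pcx (0.28) and Idh3a (0.24) farthest. Ogdh and Suclg1 were the closest pair (0.083) and Pcx and Idh3a the farthest (0.47). Of all genes tested other than the 9, those nearest to the mean profile over the 12 libraries were Atp5b of ATP synthase (0.046), Cyc1 (0.051) and Uqcrfs1 (0.056) of respiratory complex III, the peroxisomal import receptor Pex5 (0.059) and Ndufs1 of complex I (0.067). The genes nearest to Pcx were Mccc1os (0.10), Tmem120b (0.10), the triglyceride synthesis enzyme Dgat1 (0.11), Prxl2a (0.12) and 1600014C10Rik (0.12). Mccc1os is annotated on the opposite strand of another gene and is uncertain without strand information.

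Levels of the enzymes and of cell markers both differed between groups, some markers in the direction of the enzymes and others against it. Summed over the 9, transcripts came to 3533 to 4184 CPM in HFD_TKO, 2319 to 2544 CPM in HFD_WT, 4258 to 4570 CPM in ND_TKO and 3420 to 4406 CPM in ND_WT. In TKO on HFD 14 of 15 adipocyte markers were higher and 0 lower (median 1.16), and 10 of 12 macrophage markers were lower and 1 higher (median -2.14). HFD in WT lowered 15 of 15 adipocyte markers (median -1.75) and raised 10 of 12 macrophage markers (median 2.33). HFD in TKO lowered 9 of 15 adipocyte markers (median -0.55) and raised 7 of 12 macrophage markers (median 0.91). On ND 3 of 15 adipocyte markers were lower in TKO and 0 higher, and 1 of 12 macrophage markers was lower and 0 higher. The 8 markers of T and NK cells were all lower in TKO on HFD and all raised by HFD in WT. Of 7 stromal markers 5 were lower and 5 raised in those comparisons, of 5 B and plasma cell markers 5 and 3, and of 8 endothelial and mural markers 1 was higher in TKO on HFD and 2 were raised and 1 lowered by HFD in WT. Of 5 mesothelium markers HFD in WT lowered 4 and raised 0 (median -1.58), the direction of the enzymes, while 0 were called in TKO on HFD (median 0.08), also by edgeR and DESeq2, with 1 past an unadjusted p of 0.05. None of the macrophage markers was at 0 in all libraries of a group. Each enzyme was also set against the mean log2 level of the 15 adipocyte markers in the same library. So measured, 8 of 9 were lower in every HFD_TKO library than in every HFD_WT library and 1 overlapped (median difference -0.73). By the same measure all 9 were higher on HFD than on ND in WT, by 1.03 to 2.10 (median 1.70), and 8 of 9 were higher on HFD in TKO (median 0.57). On ND 7 of 9 were higher in TKO than in WT (median 0.22). The marker mean itself was 10.44 in HFD_TKO, 9.11 in HFD_WT, 11.10 in ND_TKO and 11.25 in ND_WT. Any gene that changed less than the markers therefore runs opposite to them by this measure. The share of all genes that did so was not computed. These differences from a marker mean are descriptions with no test, and the part of cell make-up in the changes was not tested.

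**Figure D5:**
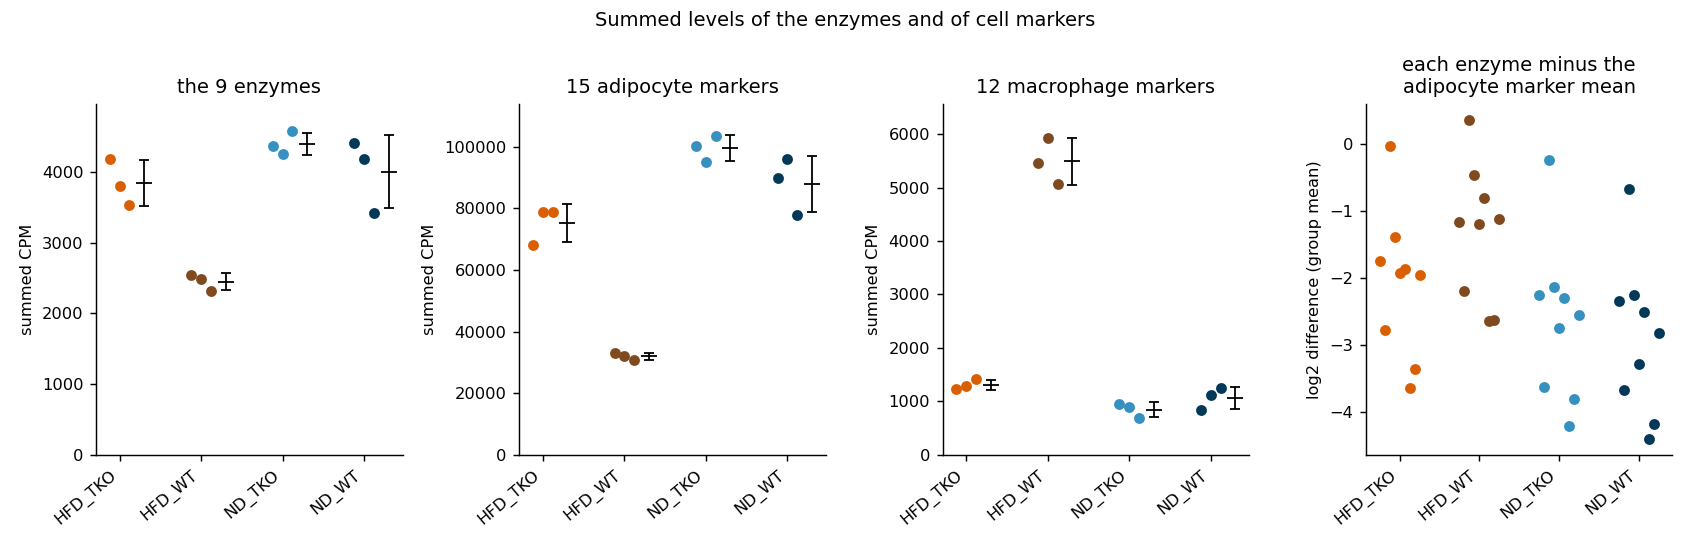
Summed CPM per library (vertical axes, from 0) of the 9 enzymes, 15 adipocyte markers and 12 macrophage markers, with mean ± SD (n = 3). The last panel shows, for each enzyme (points), the group mean of its log2(CPM + 1) minus the mean of the adipocyte markers. Enzymes and adipocyte markers are lowest in HFD_WT, at 2319 to 2544 and 30884 to 33088 CPM, where macrophage markers are highest, at 5074 to 5935 CPM. With the marker mean subtracted the enzymes stand highest in HFD_WT, where that mean is itself lowest (9.11).

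Close copies of the enzymes contributed few reads. Pdha2, the testis form of Pdha1, was listed with 0 reads in every library, which allows up to 0.117 to 0.143 CPM (3 reads per library, counting error only). Csl, a copy of the citrate synthase gene, had at most 3 reads, and Ogdhl, a relative of Ogdh, reached at most 3.29 CPM.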

How the data were processed

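RNA was sequenced from eWAT of 12 mice, 3 per group. The deposited table gives 1 value per gene and library in CPM, per the file headers, which call them raw CPM. Per the submitters' processing notes the build was mm10 and the tools included featureCounts 2.0.0, STAR 2.7.3a and DESeq2, with no role stated. The annotation release, strand setting and treatment of multiply mapped reads are not given in the sources used here. CPM scales each library to its total, so abundant genes that change shift the values of the rest.

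Reads were recovered from the deposited CPM: 100% of values equalled a whole number of reads plus 0.01 read (tolerance 0.05 read). Of 25232 listed genes, 3 without a symbol were left out. Genes with at least 0.5 CPM in at least 3 libraries were tested with limma 3.58.1 (mean-variance trend, R 4.3.3) on log2(CPM + 1), with a mean per group over all 12 libraries, no covariate and Benjamini-Hochberg adjustment over 15597 genes. This scale understates changes of low genes. The interaction is the TKO effect on HFD minus that on ND. Alternatives were TMM-scaled CPM, edgeR 4.0.16, DESeq2 1.42.0 and limma-voom on recovered reads, pseudocounts 0.1 and 5, no filter or one at 5 CPM, the groups of a comparison alone, the replicate number as a block, and leaving out each library. The limma procedure was tested on simulated data. Ratios of 2 genes were compared by exact two-sided permutation.

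The labels number the replicates 1 to 3 in every group but state no shared animal or batch. Correlations of same-numbered deviations from the group means were 0.39, 0.56 and 0.12 between ND_TKO and HFD_TKO. Over all 18 same-numbered pairs they ran from -0.50 to 0.56, with 5 over 0.1. Differently numbered pairs also reached 0.56, for ND_WT replicate 1 with HFD_TKO replicate 2. Between ND_TKO and HFD_TKO the differently numbered pairs ran from -0.53 to 0.11. The main fits carried no pairing, and the replicate block was an alternative, fitted also to ND_TKO and HFD_TKO alone. No libraries of the same group were duplicates (chi-square per degree of freedom 6.20 to 71.5 between replicates). Libraries of different groups were not compared in this way.

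The enzymes and gene lists were chosen with earlier results of these data known. All 9 enzymes are named, as are the pyruvate carrier, complex and kinase lists; of other lists at most 4 called genes with the smallest adjusted p are named per comparison, and 1 gene that this rule names is not reported here. Promoter windows are from RefSeq on GRCm38.p6. Exon lengths are from GENCODE vM21, as are the lengths of the transcripts matched to the RefSeq entry of each gene. Idh3a had no promoter entry, and gene coordinates are those of GENCODE vM21 on mm10.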

Additional observations from a re-analysis of the deposited data

Results flagged for a closer look

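Among the 9 enzymes, the 5 genes of the pyruvate carrier and complex and the 7 kinases and phosphatases, the genotype effect on HFD differed from that on ND for 10 genes by limma's interaction term, adjusted over all 15597 genes. Among the 9 enzymes these were Pdhb (0.87), Pdha1 (0.82), Pcx (0.66), Fh1 (0.38) and Suclg1 (0.30), all on the log2 scale and all with the larger TKO minus WT difference on HFD. Among the proteins that bring pyruvate to the complex they were Mpc1 (0.85), Pdhx (0.61) and Dld (0.39). Among the regulators, Pdk4 had the largest value, with the opposite sign (-2.09), and Pdp2 had 0.90. Pdk4 was higher in TKO than in WT on ND by 0.92, which did not pass the test, and lower on HFD by 1.17 (log2 change -1.17). The adipocyte and macrophage markers moved in the same libraries, as given above, and their part in these differences was not tested.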

How the results depend on the processing

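Of 3185 values of genes under alternatives, 2971 kept direction and side of the threshold, 180 lost and 19 gained a call, and 15 changed sign, none of them called. On ND the sign changed for Cs (0.031 with TMM scaling, 0.030 with limma-voom, 0.021 with edgeR, 0.018 with DESeq2, and -0.15 to 0.054 without 1 library). Without 1 library the range was -0.18 to 0.030 for Pdha1, -0.0086 to 0.11 for Ogdh and -0.0043 to 0.070 for Suclg1. It was -0.12 to 0.028 for Idh3a under HFD in WT and -0.037 to 0.15 for Cs under HFD in TKO (-0.011 with TMM scaling, -0.0099 with limma-voom). Leaving out 1 library, the enzymes called numbered 8 to 9 for TKO on HFD, 7 to 8 for HFD in WT, 0 to 1 for TKO on ND, 0 to 2 for HFD in TKO and 2 to 8 for the interaction. With no filter they were 0 on ND and 0 for HFD in TKO, and with only the groups compared 0 and 1. With the replicate block 1 was called for HFD in TKO, also when only ND_TKO and HFD_TKO entered, a setting chosen after seeing the data. The block moved no other count of enzymes by over 1.5 times. The ratio of Pdhb to Pdha1 between genotypes ranged from -0.088 to 0.022 on ND and from -0.089 to 0.062 on HFD without 1 library (-0.0092 with a pseudocount of 5). TMM scaling left the counts of enzymes called as they were; their medians with it were 0.73 for TKO under HFD, -0.61 for the diet within WT, -0.18 for the diet within TKO, 0.12 for TKO under ND and 0.46 for the interaction. On ND the calls over all genes with TMM scaling numbered 498 higher and 424 lower (337 and 552 with CPM), and for the interaction 1984 and 2533 (1550 and 2926). With 3 libraries a group, no enzyme was called at a change smaller in size than the -0.24 of Ogdh for HFD in TKO.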
